A study of Mus musculus with 5 samples.

Results

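Ribosome-bound RNA of the midbrain was examined for the genes of major histocompatibility complex (MHC) class II presentation in mice in which DAergic (dopaminergic) neurons were made to lose Esrrg, which encodes the estrogen-related receptor gamma (ERRγ), a nuclear receptor. The 7 genes, chosen by name, were the class II chain genes H2-Aa, H2-Ab1 and H2-Eb1, the invariant chain gene Cd74, the transactivator gene Ciita, and H2-DMa and H2-DMb1, whose products load peptide, out of 53700 gene IDs in the table. All 7 had counts in every library and in each of the 7, no fewer than 2 libraries reached 10 counts. The group was taken up because H2-Eb1 was known to be among the largest rises between the genotypes, so the comparison of genotypes helped to choose it. The values of the 7 genes in that comparison are therefore given as a description. Where calls of these 7 genes are given, they describe the fits, and nothing is read from them.

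The libraries came from mice labelled C57BL/6 (C57BL/6J in the methods of the study) aged 4 months, 1 month after the deletion. All mice carried the L10a transgene, an EGFP-tagged ribosomal protein that Cre recombinase switches on, and all were injected in the midbrain with AAV:THCre, a virus in which the tyrosine hydroxylase promoter drives Cre. BAC-TRAP, a translating ribosome affinity purification, captures tagged ribosomes by their tag and keeps the mRNA that is bound to them. The promoter is meant to restrict Cre, and with it the tag, to DAergic neurons. The L10a;Esrrg WT group had 3 libraries (replicates 2, 3 and 4) with intact Esrrg, and the L10a;Esrrg Flox group had 2 (replicates 2 and 4), in which the same Cre removes exon 2 of Esrrg. Each library was a pool of several animals, so the spread and the p-values given below measure differences between pools. With 3 libraries against 2, an exact rank-sum test of a single gene cannot give a two-sided p under 0.2, and the tests are fits across all genes.

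The libraries held between 20635855 and 23105058 counts assigned to genes, and 3 counts, the limit that a count of 0 allows, correspond to 0.130 to 0.145 CPM. Normalized counts are counts divided by the DESeq2 size factor of the library. Esrrg itself had 1763, 1643 and 1726 normalized counts in WT replicates 2, 3 and 4 and 1504 and 1170.1 in Flox replicates 2 and 4. Fold changes of Flox over WT are given on the log2 scale ± their SE. Both Flox libraries were below all WT libraries, but these totals include the exons that were not deleted, and the difference did not pass the test (-0.35 ± 0.13 on the log2 scale, DESeq2 adjusted p = 0.0753). Markers of DAergic neurons were present in every library, with 9849 to 12813 normalized counts of Th, the tyrosine hydroxylase gene. Markers of cells that the promoter should not reach were present as well. The astrocyte gene Gfap had between 18865 and 32741 normalized counts. Flox replicate 4 stood apart from the other libraries in the genes described here, and values without it are given beside the results.

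MHC class II molecules are pairs of an alpha and a beta chain that display peptides from endosomes to CD4+ T cells. The invariant chain, encoded by Cd74, occupies the groove of new class II molecules and guides them to endosomes, where proteases cut it down to a short fragment that the H2-DM dimer exchanges for other peptides. In the brain these genes are known from microglia in an activated state, border macrophages and infiltrating leukocytes, and are not known as genes of neurons. Ciita encodes the class II transactivator, which binds no DNA by itself and acts through factors that are bound to the X and Y boxes before class II genes.

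In GENCODE M21 (GRCm38), 5 of the 7 genes lie in the MHC locus, H2-DMa at chr17:34119541-34139101, H2-DMb1 at chr17:34153072-34160230, H2-Ab1 at chr17:34257689-34269419, H2-Aa at chr17:34282744-34287823 and H2-Eb1 at chr17:34305867-34316674. Ciita lies at chr16:10480059-10528418. RefSeq promoters (GRCm38.p6, 250 bases before to 50 after the start) were at hand for 4 of the 7, namely H2-Aa, H2-Eb1, H2-DMa and H2-DMb1. The core of the Y box, searched as GATTGG on both strands, was in a promoter of each of the 4 genes, against 16.1% of 32851 promoters. H2-DMa had 2 promoters, of which 1 held the match, so genes and promoters are not counted alike here. The X box was searched as AGCAAC on both strands, which was found before H2-Eb1 alone of these 4 and in 14.8% of all promoters. Because the X boxes of class II genes vary, a looser form, GNAACT on both strands, was added after the promoters had been read. In H2-Eb1 its match overlaps that of AGCAAC. The looser form was found in all 4 genes, in H2-DMa after the start, and in 42.8% of all promoters. GNAACT followed by GATTGG on the same strand within 60 bases was found in 3 of the 4 genes and in 0.731% of all promoters. Since the looser form was chosen on these promoters, nothing is read from its share or from that of the pair. The half-site that ERR proteins bind, AAGGTCA on either strand, was found in 1 of the 4, H2-Eb1, on the reverse strand 238 bases before the start (4.72% of all promoters). The gamma-activated sequence TTCNNNGAA was found in 0 of the 4 (8.30% of all promoters). A match says only that the letters are present.

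The promoters of the 3 genes with the paired boxes are shown so that the letters matched and their spacing can be seen. Capitals mark the GNAACT and GATTGG matches on the strand of the gene. H2-Aa is at chr17:34287774-34288073 on the minus strand, H2-Eb1 at chr17:34305617-34305916 and H2-DMb1 at chr17:34152941-34153240, both on the plus strand, and all are written 5′ to 3′.
H2-Aa: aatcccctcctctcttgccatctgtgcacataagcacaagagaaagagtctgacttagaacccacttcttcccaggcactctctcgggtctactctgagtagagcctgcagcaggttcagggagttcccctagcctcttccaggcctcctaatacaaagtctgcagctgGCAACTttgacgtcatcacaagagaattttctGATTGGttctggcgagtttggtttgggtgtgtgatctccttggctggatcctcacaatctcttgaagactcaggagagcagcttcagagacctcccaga
H2-Eb1: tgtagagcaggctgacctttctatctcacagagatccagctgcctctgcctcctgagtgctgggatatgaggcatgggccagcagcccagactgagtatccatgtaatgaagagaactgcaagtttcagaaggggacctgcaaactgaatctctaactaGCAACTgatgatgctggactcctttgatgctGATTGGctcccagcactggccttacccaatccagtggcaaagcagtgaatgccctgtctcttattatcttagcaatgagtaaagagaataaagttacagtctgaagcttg
H2-DMb1: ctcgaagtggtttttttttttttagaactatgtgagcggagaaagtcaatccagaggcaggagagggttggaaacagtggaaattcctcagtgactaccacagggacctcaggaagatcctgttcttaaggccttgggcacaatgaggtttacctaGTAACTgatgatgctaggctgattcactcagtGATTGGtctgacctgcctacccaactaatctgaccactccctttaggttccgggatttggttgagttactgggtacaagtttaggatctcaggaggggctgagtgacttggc

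On the strand of the gene, the X box match of H2-Aa began 81 bases and its Y box match 49 bases before the start. In H2-Eb1 they began 91 and 60 bases before it, and in H2-DMb1 94 and 62. H2-DMa had a Y box match 199 bases before one of its 2 starts and no pair. A further Y box match, on the reverse strand, lay 35 bases before the start of H2-Eb1. GNAACT also matched on the reverse strand, 128 bases before the start of H2-Aa and 129 bases before that of H2-Eb1. Further reverse matches of GNAACT lay after the start in H2-Eb1 and H2-DMb1.

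**Figure D1:**
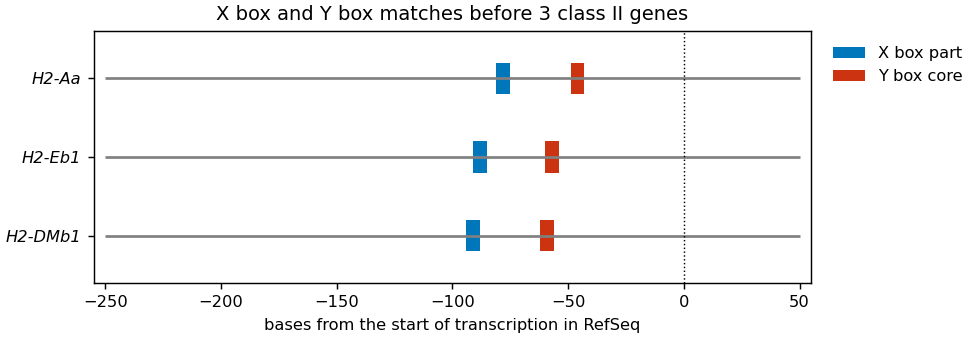
Positions of the X box match (blue, GNAACT) and the Y box match (red, GATTGG) on the strand of the gene in the promoters of H2-Aa, H2-Eb1 and H2-DMb1, in bases from the RefSeq start (dotted line). In each of the 3 genes the blue box lies farther from the start than the red one, at 81 against 49 bases in H2-Aa, 91 against 60 in H2-Eb1 and 94 against 62 in H2-DMb1.

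The chains that form the displayed molecule were considered first. H2-Aa, the alpha chain of the I-A molecule, had 289.7, 160.0 and 46.1 normalized counts in WT replicates 2, 3 and 4, and 641 and 1602 in Flox replicates 2 and 4. The beta chain of the same molecule, H2-Ab1, had 508, 265 and 54.8 in WT, against 929 and 2293 in Flox. H2-Eb1, the beta chain of the I-E molecule, had 381, 293 and 154 in WT, and 818 and 2007 in Flox. In all 3 chain genes both Flox libraries were above every WT library and the groups did not overlap, WT replicate 4 was lowest and Flox replicate 4 highest. The group means of normalized counts were 165 ± 122 and 1121 ± 679 for H2-Aa (SD, n = 3 WT and n = 2 Flox), 276 ± 227 and 1611 ± 965 for H2-Ab1, and 276 ± 115 and 1412 ± 841 for H2-Eb1. The log2 fold changes of Flox over WT were 2.76 (SE 0.98), 2.55 (SE 1.10) and 2.35 (SE 0.66). In linear terms the Flox mean was 6.78 times the WT mean for H2-Aa, 5.84 times for H2-Ab1 and 5.11 times for H2-Eb1.

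The invariant chain had the highest mean level in both groups, although in WT replicate 4 it lay below H2-DMa and H2-Eb1. Cd74 had 913, 606 and 135 normalized counts in WT replicates 2, 3 and 4, and 1783 and 4982 in Flox replicates 2 and 4. Its groups did not overlap, and the WT mean was 552 ± 392 (SD, n = 3), the Flox mean 3383 ± 2262 (SD, n = 2), with a log2 fold change of 2.62 (SE 1.03). The lower Flox library exceeded the highest WT library by 1.95-fold for Cd74, by 2.21-fold for H2-Aa, by 1.83-fold for H2-Ab1 and by 2.14-fold for H2-Eb1.

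The genes of peptide loading and of transcriptional control were set apart by smaller differences. H2-DMb1, the beta chain of the H2-DM dimer, had 78.0, 69.3 and 29.8 normalized counts in WT and 124 and 211 in Flox, with a log2 fold change of 1.51 (SE 0.38). H2-DMa, its alpha chain, had 259, 205 and 155 in WT and 260.3 and 397 in Flox, so that Flox replicate 2 lay only 1.00-fold above WT replicate 2. Its log2 fold change was 0.67 (SE 0.25). Ciita had 43.2, 28.5 and 8.65 normalized counts in WT and 27.9 and 62.6 in Flox. The groups overlapped in Ciita, where Flox replicate 2 lay below both WT replicate 2 and WT replicate 3, and the log2 fold change was 0.76 (SE 0.61). H2-DMb1 has a near copy, H2-DMb2, beside it, and 10.4% of the exon length of H2-DMa overlaps exons of Brd2, so the counts of these 2 genes are less certain. For Ciita, 3.45% of the exon length overlaps Dexi.

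**Figure D2:**
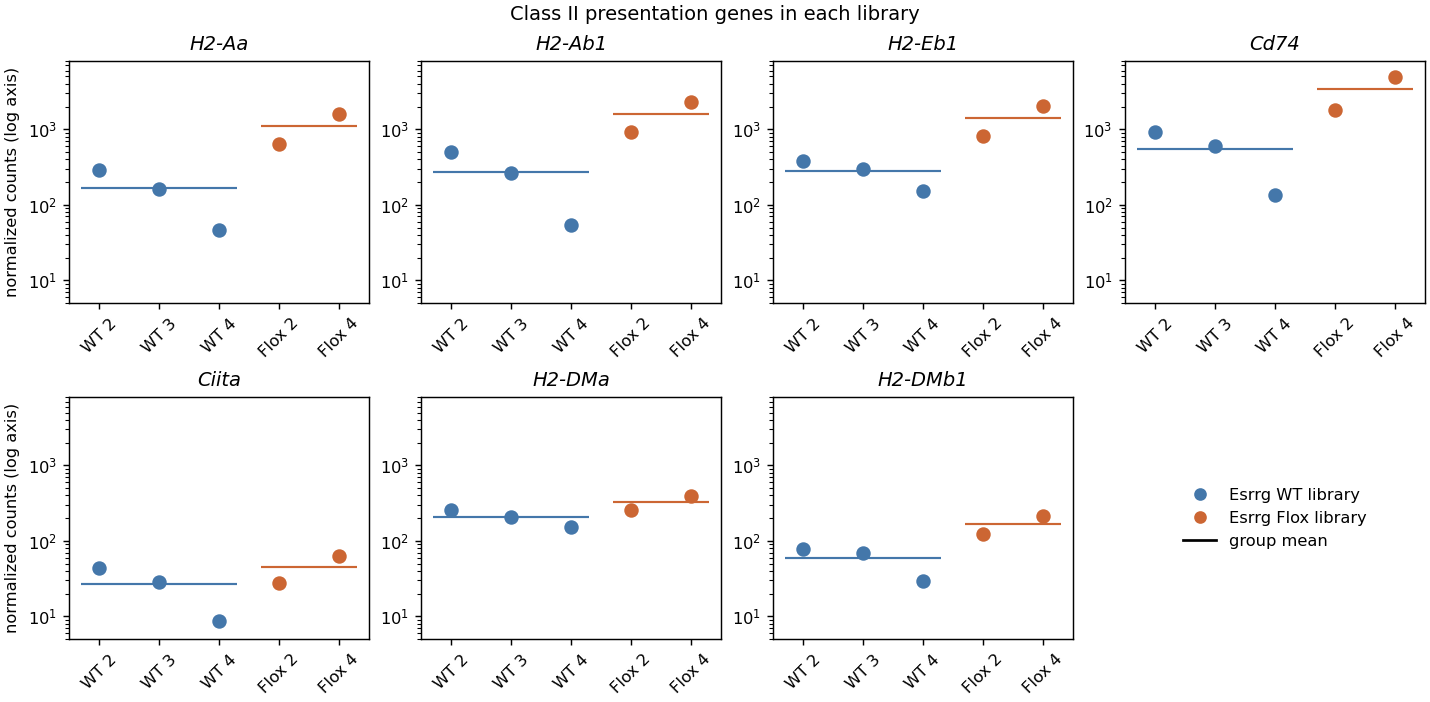
Normalized counts (log axis) of the 7 class II presentation genes in the 3 Esrrg WT (blue) and 2 Esrrg Flox (orange) libraries, with the group means as lines. Flox libraries lie above all WT libraries in 6 of the 7 genes, Ciita being the exception, and the WT libraries themselves differ by up to 9.27-fold in H2-Ab1.

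By the call rule of the study (fold change of at least 1.5 and DESeq2 adjusted p under 0.05), 2 of the 7 genes, H2-Eb1 and H2-DMb1, were called higher and 0 lower, where 1.77% of 15724 genes tested were called higher. With edgeR the count was also 2, but the genes were H2-Aa and H2-Eb1 (0.607% of genes were called higher and 0.475% lower). Both Flox libraries exceeded all WT libraries in 6 of the 7, against 19.9% of the genes tested. The median log2 fold change of the 7 was 2.35, and that of all genes tested was -0.0063. Since the contrast helped to choose the genes, nothing is read from these counts. In these pooled samples, more cells of a type and more RNA per cell cannot be told apart.

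The 3 genes with the largest fold changes were H2-Aa, Cd74 and H2-Ab1. The WT libraries differed more in these 3 than in H2-Eb1. The highest WT library exceeded the lowest by 9.27-fold in H2-Ab1, 6.74-fold in Cd74, 6.28-fold in H2-Aa and 5.0-fold in Ciita, and by 2.48-fold in H2-Eb1, 2.62-fold in H2-DMb1 and 1.68-fold in H2-DMa. The median of this ratio over all genes tested was 1.2. In each of the 7 genes WT replicate 4 was lowest. The 2 Flox libraries differed by 2.25-fold to 2.79-fold in the chain genes, Cd74 and Ciita, and by 1.52-fold and 1.70-fold in H2-DMa and H2-DMb1. From lowest to highest, 6 of the 7 genes had the order WT 4, WT 3, WT 2, Flox 2 and Flox 4. This order was found in 3% of the genes tested. It ends on the Flox pools, and the comparison of genotypes helped to choose the genes. Nothing is therefore read from how many of the 7 share it.

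The size of these differences and the calls changed when single libraries were left out. The share of all genes called is not given for these fits, so the counts of calls in them are a description. Without Flox replicate 4 the log2 fold changes were 1.95 for H2-Aa, 1.75 for H2-Ab1, 1.56 for H2-Eb1, 1.69 for Cd74, 1.07 for H2-DMb1, 0.33 for H2-DMa and 0.057 for Ciita, and 0 of the 7 were called, of which 5 had an adjusted p (2 at an unadjusted p under 0.05 in DESeq2). Without WT replicate 4 they were 2.31, 2.06, 2.06, 2.15, 1.18, 0.50 and 0.33, in the same order, and H2-Aa, H2-Eb1 and Cd74 were called of 5 with an adjusted p. Without WT replicate 3 only H2-DMb1 was called, without WT replicate 2 H2-Aa, H2-Eb1 and H2-DMb1, and without Flox replicate 2 H2-Eb1, H2-DMa and H2-DMb1. The direction of each of the 7 genes was the same in all 9 alternative fits.

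**Figure D3:**
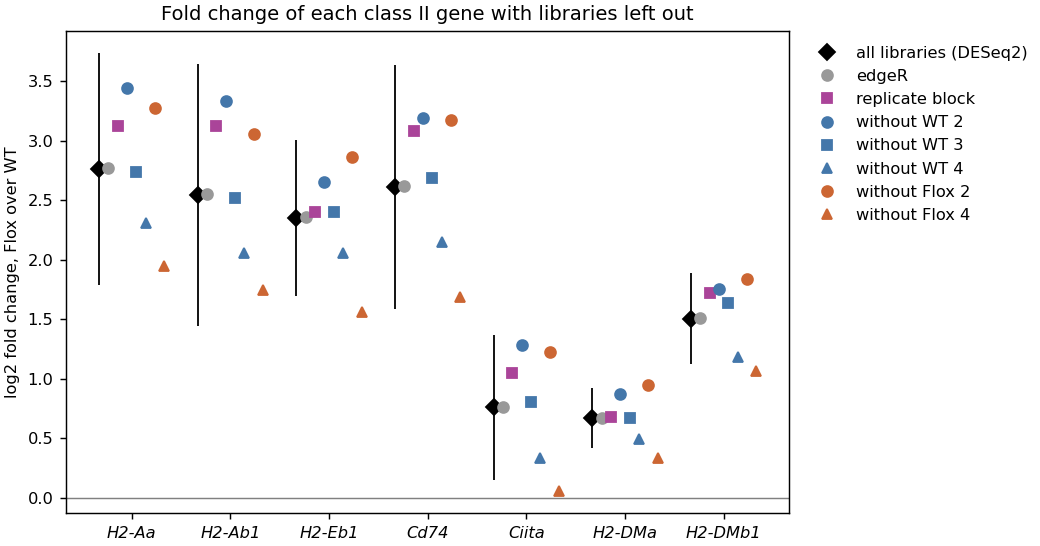
Log2 fold change (Flox over WT) of the 7 genes with all libraries (black, bars are ± SE of the DESeq2 fit), with edgeR, with the replicate number as a block, and without each library in turn. The values are lowest without Flox replicate 4, where Ciita is at 0.057, and above 0 in every fit.

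The make-up of the class II counts was then compared within libraries, where no scaling between libraries is needed. H2-Eb1 took 42.9% of the counts of both beta chain genes (H2-Eb1 and H2-Ab1) in WT replicate 2 (exact binomial 95% interval 39.5% to 46.3%), 52.6% in WT replicate 3 (48.3% to 56.8%) and 73.7% in WT replicate 4 (67.3% to 79.5%). It took 46.8% in Flox replicate 2 (44.5% to 49.1%) and 46.7% in Flox replicate 4 (45.2% to 48.2%). The 3 WT libraries thus differed from each other beyond counting error, and the Flox libraries, which lay between WT replicates 2 and 3, did not. These intervals cover counting error only. H2-Aa took between 36.3% and 45.7% of the counts of H2-Aa and H2-Ab1 in WT and 40.8% and 41.1% in Flox. Both Flox values lay within the counting intervals of WT replicates 3 (32.98% to 42.5%) and 4 (36.0% to 55.7%) and above that of WT replicate 2 (32.9% to 39.9%).

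Among the counts of all 7 genes, the share of Cd74 was 36.9%, 37.3% and 23.2% in WT replicates 2, 3 and 4, and 38.9% and 43.1% in Flox replicates 2 and 4. H2-DMa had 10.5%, 12.6% and 26.5% in WT and 5.68% and 3.43% in Flox, the lowest shares of the 5 libraries. WT replicate 4, in which the 7 genes summed to 607 counts, was therefore set apart by large shares of H2-DMa and H2-Eb1. The 7 genes summed to 2347 and 1597 counts in WT replicates 2 and 3 and to 4770 and 11623 in the Flox libraries.

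**Figure D4:**
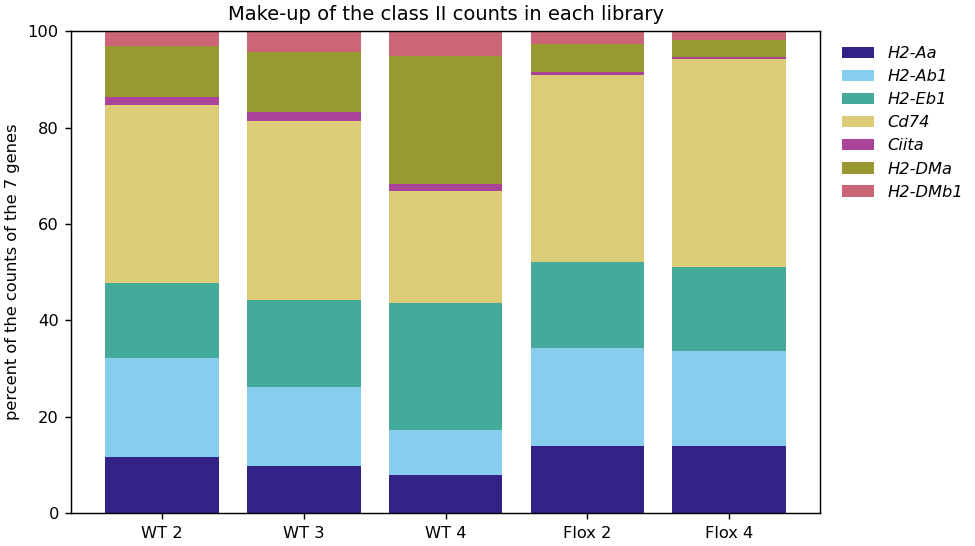
Share of each of the 7 genes in their summed counts (percent), by library. In WT replicate 4, H2-DMa takes 26.5% and Cd74 23.2%, and in the Flox libraries H2-DMa takes 5.68% and 3.43%.

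Per kilobase of merged exons, Cd74 had the highest level in both groups, 329 ± 233 normalized counts per kilobase in WT and 2015 ± 1347 in Flox (SD over 3 and 2 libraries). In WT it was followed by H2-Eb1 (142 ± 59.1), H2-Ab1 (107 ± 88.3), H2-DMa (59.8 ± 15.2), H2-Aa (43.5 ± 32.1) and H2-DMb1 (35.1 ± 15.3), each within the spread of its neighbour, and Ciita was lowest at 2.81 ± 1.82. In Flox the order was H2-Eb1 (726 ± 433), H2-Ab1 (627 ± 376), H2-Aa (295 ± 179), H2-DMb1 (99.5 ± 36.5) and H2-DMa (95.3 ± 28.0), with Ciita at 4.75 ± 2.58. Exon lengths change this order. Per kilobase of the longest coding transcript, Cd74 remained first (391 in WT and 2399 in Flox) and Ciita last (4.46 and 7.53), but H2-Ab1 (228 and 1329) stood before H2-Eb1 (165 and 846), and H2-Aa (147 and 994) before H2-DMa (103 and 164).

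The other genes of the route came from lists of 30 genes in 6 steps. Of these, 23 had an adjusted p, 2 were called higher and 0 lower in DESeq2, where 1.77% of all genes were called higher and 1.41% lower. Both calls were endosomal enzymes. Ifi30, the thiol reductase that opens disulfide bonds of antigens, had 66.4, 67.3 and 47.1 normalized counts in WT replicates 2, 3 and 4 and 132 and 209.8 in Flox replicates 2 and 4 (1.5 ± 0.31 on the log2 scale, DESeq2 adjusted p = 1.7e-04). It passed in all 7 alternative fits that gave it an adjusted p, which did not include the fit without Flox replicate 4 (1.13 on the log2 scale). Ctss, the cysteine protease that trims the invariant chain, had 604, 794 and 361 in WT and 1428 and 3657 in Flox (2.12 ± 0.62 on the log2 scale, DESeq2 adjusted p = 0.0138). It passed in 5 of 9 alternative fits. It did not pass with the replicate number as a block (DESeq2 adjusted p = 0.146), without WT replicate 2 (0.170) or without WT replicate 4 (0.0521), and without Flox replicate 4 its adjusted p was 0.582 at a log2 fold change of 1.28. Ctsl, a further protease, passed the p threshold at a fold change under 1.5 (0.40 ± 0.12 on the log2 scale, DESeq2 adjusted p = 0.0136), and did so in 4 of 9 alternative fits, not with edgeR or without Flox replicate 4 (0.26 on the log2 scale, DESeq2 adjusted p = 0.679), whereas Ctsb (0.20), Lgmn (0.35) and Sppl2a (0.081) did not pass. All 6 enzymes of this step had a log2 fold change above 0, with a median of 0.37.

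No transcription factor of the X and Y boxes passed the test. For Rfx5, Rfxap, Rfxank, Nfya, Nfyb, Nfyc and Creb1 the median log2 fold change was -0.084, 0 of 7 were called in DESeq2 (0 at an unadjusted p under 0.05) and 0 in edgeR (1 at an unadjusted p under 0.05). Rfx5, a subunit of the X box factor, had 254 to 294 normalized counts in WT and 229 and 209 in Flox (-0.32 ± 0.19 on the log2 scale, DESeq2 adjusted p = 0.323). In the interferon gamma route to Ciita, 0 of 7 were called in DESeq2 (1, Jak2, at an unadjusted p under 0.05, and lower) and 0 in edgeR (2 at an unadjusted p under 0.05). Irf1 had 785, 708 and 346 normalized counts in WT and 713 and 1532 in Flox (0.87 ± 0.60 on the log2 scale, DESeq2 adjusted p = 0.447). Flox replicate 2 lay within the range of the WT libraries and Flox replicate 4 above it. Ifng had at most 6.96 normalized counts in any library.

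Other class II chains and chaperones were scarce. H2-Oa and H2-Ob, which form the H2-DO inhibitor of H2-DM, had at most 23.9 and 20.9 normalized counts, H2-DMb2 at most 14.9 and H2-Eb2 at most 19.9, and none of the 5 genes of this step had an adjusted p. In edgeR, 4 of the 5 were tested and 0 were called (2 at an unadjusted p under 0.05). C57BL/6 mice carry a defective alpha chain gene for I-E, and H2-Ea-ps had 1.02 normalized counts in WT replicate 3 and 0 in the other 4 libraries, beside the 154 to 381 normalized counts of its beta chain partner H2-Eb1 in WT. The genes of co-stimulation, which antigen-presenting cells need to activate T cells, were low as well. Cd86 had 5.76 to 17.3 normalized counts in WT and 24.02 and 56.7 in Flox (1.76 ± 0.63 on the log2 scale, DESeq2 adjusted p = 0.0600), Cd40 had 11.2 to 26.3 in WT and 36.5 and 45.7 in Flox (1.28 ± 0.54, DESeq2 adjusted p = 0.132), and Cd80 had no adjusted p. In all 3 both Flox libraries were above the WT libraries, and 0 were called in DESeq2 (2 at an unadjusted p under 0.05) or in edgeR (2). The ubiquitin ligase genes March1 and March8, which send class II molecules to degradation, had log2 fold changes of -0.37 and -0.053, with 0 of 2 called in DESeq2 (1 at an unadjusted p under 0.05) and 0 in edgeR (1).

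Markers of the cells that could carry class II RNA were set beside these values. Of 12 microglia markers, 10 were called higher and 0 lower in DESeq2 (1.77% of all genes called higher), with a median log2 fold change of 1.69, and both Flox libraries exceeded all WT libraries in 11. Summed over the list, there were 2441, 2931 and 1545 normalized counts in WT replicates 2, 3 and 4 and 5211 and 11162 in Flox replicates 2 and 4. The complement gene C1qa had 627, 743 and 377 in WT and 1598 and 4044 in Flox (2.28 ± 0.58 on the log2 scale, DESeq2 adjusted p = 0.00367), the receptor gene Trem2 had 100.1, 87.6 and 62.5 in WT and 203 and 486 in Flox (2.05 ± 0.33, adjusted p = 6.0e-07), and the adaptor gene Tyrobp was at 2.09 (SE 0.34, adjusted p = 6.0e-07). The other 7 genes called were C1qb, C1qc, Aif1, Itgam, Tmem119, Cx3cr1 and Csf1r, with log2 fold changes between 0.78 for Csf1r and 2.24 for Aif1. P2ry12, a gene of resting microglia, had 33.6 to 81.1 in WT and 70.1 and 72.6 in Flox, within the WT range (0.35 ± 0.40, DESeq2 adjusted p = 0.717). Of the 12, 6 were called with edgeR, and 0 without Flox replicate 4, where 6 had an adjusted p (8 at an unadjusted p under 0.05 in DESeq2), 3 without WT replicate 2, and 5 without WT replicate 4, where 7 had an adjusted p. C1qa, Trem2 and Tyrobp were at 1.45, 1.28 and 1.45 on the log2 scale when Flox replicate 4 was left out, and C1qa alone of these had an adjusted p (0.310 in DESeq2). Microglia markers therefore moved with the class II genes, and their part in the class II values was not tested.

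The class II genes and the microglia markers did not follow each other in every library. Divided within each library, the summed normalized counts of the 7 genes were 1.013, 0.555 and 0.377 times those of the 12 markers in WT replicates 2, 3 and 4 and 0.879 and 1.03 times in Flox replicates 2 and 4. With all 12 markers, the Flox ratios lay inside the WT range or just above it, with WT replicate 2 between them. Their mean was 1.48 times the WT mean. This fold was 2.05 without WT replicate 2, 1.22 without WT replicate 4 and 2.16 when the C1q genes were left out of the markers. Without the C1q genes the ratios were 2.34, 1.32 and 0.80 in WT replicates 2, 3 and 4 and 2.64 and 3.79 in Flox. Both Flox libraries then lay above all WT libraries. Without Cd74 among the class II genes, the Flox ratios of 0.54 and 0.59 lay inside the WT range of 0.29 to 0.64. By gene, counts per 1000 microglia marker counts were 67.7 ± 45.8 for H2-Aa in WT and 133 ± 14.5 in Flox, 119 ± 32.6 and 168 ± 16.2 for H2-Eb1, and 223 ± 144 and 394 ± 73.7 for Cd74 (SD, n = 3 and n = 2). Lower values in Flox were found for H2-DMa, with 106, 69.9 and 100.1 in WT and 49.95 and 35.5 in Flox, without overlap, and for Ciita, with 17.7, 9.74 and 5.60 in WT and 5.35 and 5.61 in Flox, which overlapped. H2-DMb1 stood at 25.0 ± 6.43 in WT and 21.3 ± 3.46 in Flox. The marker sum itself was 3.55 times as high in Flox as in WT, so a gene that rose less tends to come out lower on this scale. The share of all genes below every WT library on it is not given. By gene, no other set of markers was used. On the scale of all 12 microglia markers, the 7 genes thus did not share a direction.

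**Figure D5:**
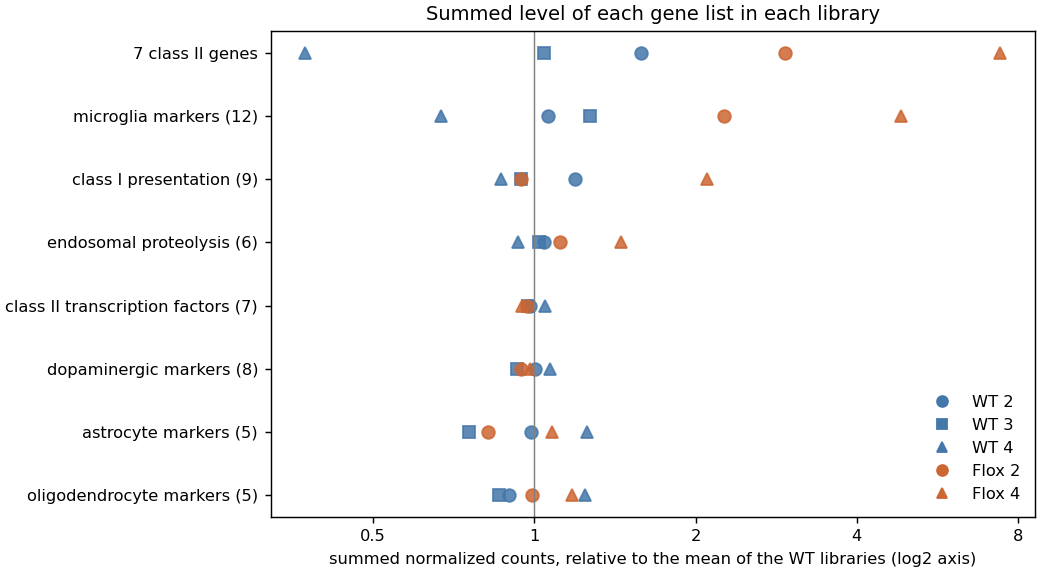
Summed normalized counts of 8 gene lists in each library, relative to the mean of the 3 WT libraries (log2 axis, number of genes in parentheses). For the 7 class II genes and the microglia markers both Flox libraries lie above all WT libraries, while for class I presentation Flox replicate 2 lies among the WT libraries and Flox replicate 4 above them.

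Most markers of other leukocytes were low, the exceptions being Pax5 (351 to 554 normalized counts over the 5 libraries), Ighm (364 to 770.4), Flt3, Zbtb46 and Trac, none of which was called with all libraries. Among 3 monocyte markers, Ly6c2 (8.65 to 22.4 normalized counts in WT, 47.1 and 68.6 in Flox) and Plac8 (8.65 to 28.5 in WT, 59.6 and 58.7 in Flox) were called higher in DESeq2 (adjusted p = 0.0147 and 0.0286), and 0 of the 3 with edgeR (3 at an unadjusted p under 0.05). Without Flox replicate 4 they were at 1.44 and 1.59 on the log2 scale, with no adjusted p. Of 6 T cell markers, Cd8a was called higher in DESeq2, with 8.43, 7.13 and 1.92 normalized counts in WT and 39.4 and 90.5 in Flox (3.49 ± 0.64 on the log2 scale, adjusted p = 1.7e-05). It was at 2.76 on that scale, with no adjusted p, without Flox replicate 4. Cd8a was also the 1 T cell marker called with edgeR. Of the 6, 3 were at an unadjusted p under 0.05 in DESeq2 and 4 in edgeR, and all 6 had a log2 fold change above 0. Cd3e, Cd3d and Cd3g were at 2.44 ± 0.86, 2.44 ± 0.92 and 2.61 ± 1.54 on that scale and were not called. These 3 had at most 14.3 normalized counts in WT and 51.7 in Flox. Cd4, the coreceptor that binds class II molecules, had 6.73 to 11.2 in WT and 5.76 and 19.9 in Flox and no adjusted p. Of 7 dendritic cell markers, 1, Itgax, was called higher (1.60 ± 0.54, DESeq2 adjusted p = 0.0420; 0.62 without Flox replicate 4, with no adjusted p), and Cd209a, Xcr1, Clec9a and Ccr7 had at most 9.94 normalized counts in any library. The B cell gene Ms4a1 was at 0 in all 3 WT libraries and had at most 4.80 normalized counts in Flox, and 0 of 6 B cell markers were called in DESeq2 (2 at an unadjusted p under 0.05) or in edgeR (2). Of 6 border macrophage markers 0 were called in DESeq2 (1, Ms4a7, at an unadjusted p under 0.05, and higher) or in edgeR (0). Only 2 of the 6 had an adjusted p. The log2 fold change was above 0 in 5 and below 0 in 1, Lyve1, which had at most 3.16 normalized counts. Summed, the list had 45.3, 64.2 and 41.3 normalized counts in WT replicates 2, 3 and 4 and 103.7 and 87.5 in Flox.

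Of 6 endothelial markers, Cldn5, Flt1 and Slco1a4 were called higher in DESeq2, with log2 fold changes of 1.58 (SE 0.45), 2.0 (SE 0.50) and 1.94 (SE 0.64), and 0 with edgeR (4 at an unadjusted p under 0.05). Flox replicate 4 set the size of these differences, which were 0.68, 0.65 and 0.88 without it, with no adjusted p. Cldn5 also did not pass with the low-count filter (DESeq2 adjusted p = 0.174). For astrocytes and oligodendrocytes 0 of 5 were called in each list in DESeq2 and 0 in edgeR, with 0 at an unadjusted p under 0.05 by either tool. The 8 DAergic markers summed to between 38824 and 44692 normalized counts in WT and to 39456 and 41098 in Flox, with 0 called in DESeq2 (3 at an unadjusted p under 0.05) and 0 in edgeR (3). Ret, the receptor of glial cell line-derived neurotrophic factor, passed the p threshold at a fold change under 1.5 and was lower (-0.40 ± 0.10 on the log2 scale, DESeq2 adjusted p = 0.00291), and did so in 6 of 9 alternative fits. Over the 52 genes of these 9 lists, 7 were called in DESeq2, 1 with edgeR, 3 without WT replicate 2 and 0 without WT replicate 4, where 19 of the 52 had an adjusted p. Without Flox replicate 4, where 21 had one, none of the 7 was called and Ighm, which was not among them, was (0.88 on the log2 scale, DESeq2 adjusted p = 0.0166).

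Class I presentation, the route closest in function, was compared last. Of H2-K1, H2-D1, B2m, Tap1, Tap2, Tapbp, Psmb8, Psmb9 and Nlrc5, 0 of 9 were called in DESeq2 (0 at an unadjusted p under 0.05) and 0 in edgeR (4 at an unadjusted p under 0.05), with a median log2 fold change of 0.61. B2m, the light chain of class I molecules, had 13225, 10740 and 10986 normalized counts in WT and 10137 and 20097 in Flox, and H2-K1, a heavy chain, had 5654, 4060 and 3290 in WT and 4741 and 12085 in Flox. In both genes the groups overlapped, since only Flox replicate 4 stood above the WT libraries. In 0 of the 9 genes were both Flox libraries above all WT libraries, where 19.9% of the genes tested were. Without Flox replicate 2, 5 of the 9 were called. The difference between the class I and class II genes was not tested.

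The genes whose profile over the 5 libraries was nearest to that of the class II genes were AW112010, Ctsh, Ly86, Fxyd5, Tgfbi, Aif1, Cd52 and Cybb. Likeness was the root mean square difference of log2(normalized count + 1), centred on each gene's mean, from the mean profile of the 6 members with at least 50 normalized counts on average, over 12846 genes with that level. AW112010, an interferon-induced transcript, was nearest of all (0.20), with 29.5, 20.4 and 7.69 normalized counts in WT and 50.9 and 164 in Flox. H2-Eb1 was second (0.24) and H2-DMb1 sixteenth (0.39). Ctsh, a lysosomal protease, was at 0.28, Aif1, which encodes the microglial protein Iba1, at 0.29, and Cybb, the catalytic subunit of the phagocyte oxidase, at 0.31. Cd74 (0.42), H2-Aa (0.43) and H2-Ab1 (0.52) lay farther from the mean profile because of their wider range between libraries, and H2-DMa (0.88), at rank 165, lay farthest of the 6. The members form the mean profile themselves, so their own distances are a description.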

How the data were processed

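The authors deposited 1 table of raw read counts per gene. The submitters' notes name Trim Galore 0.6.6, STAR 2.7.9a, HTSeq 0.11.3 and GRCm39, while the study's methods name GRCm38, so counts were not tied to coordinates. Gene IDs were named through GENCODE M21 (52093 of 53700). Rows for reads without a feature (3.18% to 4.45%), ambiguous reads (5.62% to 5.78%) and reads without a unique position (3.60% to 4.23%) were left out.

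WT and Flox libraries were compared with DESeq2 1.42.0 (R 4.3.3), Benjamini-Hochberg adjusted over all genes, without covariates. Calls needed an adjusted p under 0.05 and a fold change of at least 1.5. The study's methods name DESeq2 and these cutoffs, and the design formula is not given in the sources used here. Alternatives were edgeR 4.0.16 (quasi-likelihood), TMM library sizes, a filter of 10 counts in 2 libraries, the replicate number as a block, and leaving out each library. Scripts were tested on simulated data.

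The members and lists were chosen with earlier results of these data known. Named were all members, called genes of each list, defining markers at 0, abundant genes of each list, and the 8 nearest profiles. Other genes were named after their values were seen.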

Additional observations from a re-analysis of the deposited data

How the results depend on the processing

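The direction of the 7 class II genes and of their median log2 fold change (2.35) was the same in all alternatives, with a median of 1.56 to 2.86 when 1 library was left out, and H2-Eb1 was at 1.56 without Flox replicate 4. The counts of calls were less stable. Leaving out 1 library gave 0 to 3 of the 7 genes (2 with all libraries), 0 to 3 pathway genes (2), 0 to 5 class I genes (0), 0 to 10 microglia markers (10) and 0 to 5 markers of other cells (7). With edgeR, 6 microglia markers and 1 marker of other cells were called. WT and Flox share the replicate numbers 2 and 4, but nothing ties equal numbers to a litter or batch (correlation of deviations 0.15 and 0.13). With the replicate number as a block, 1 class II gene, 1 pathway gene, 3 microglia markers and 1 marker of other cells were called. The Flox over WT ratio of class II to microglia counts, 1.48 with all libraries, lay between 1.22 and 2.05 when 1 library was left out. The share of all genes called is not given for the fits with a library left out or with the block, so their counts of calls are a description. Where a library was left out, some genes had no adjusted p and could not be called. Otherwise the cause of these changes was not tested. Only 2 Flox pools, which differed by up to 2.79-fold in the class II genes, limit every comparison, and genes under about 20 normalized counts mostly had no adjusted p.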
